A study of Mus musculus with 6 samples.

Results

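The genes described here are 8 members of the fibroblast growth factor (FGF) system: the ligands Fgf2, Fgf7, Fgf10 and Fgf18, the receptors Fgfr1, Fgfr2 and Fgfr3, and the secreted carrier Fgfbp1. They were taken by symbol from a table of 55481 rows, in which each of the 8 symbols stood on 1 row. The libraries came from squamous cell carcinomas of mouse skin that had been induced by DMBA, a carcinogen, and TPA, a tumour promoter. Tumour cells with high Itga6 (the integrin alpha 6 chain of basal keratinocytes) and CD80 on the surface, which the series text calls stem-like (Itga6hi CD80pos), were set against cells with low Itga6 and no CD80, which it calls differentiated (Itga6low CD80neg). The study asked how tumour stem cells act on neutrophils. Each population had 2 libraries. Libraries labelled as high in Itga6 but without CD80 were not used here. The labels give no strain, sex or age, no further gating and no word on whether replicates came from separate animals or on pooling, so a p-value reflects the spread among 4 libraries, which may be technical.

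FGF ligands bind receptor tyrosine kinases together with heparan sulphate on the cell surface, and the activated receptors signal through the adaptor Frs2 to Ras and the MAP kinases and through phospholipase C gamma. In skin the system runs between layers: dermal fibroblasts make Fgf7 and Fgf10, whose receptor is the IIIb splice form of Fgfr2 on keratinocytes, while mesenchymal cells use the IIIc forms, among them that of Fgfr1. Fgfbp1 is a secreted protein that frees FGF ligands such as Fgf2 from the matrix. The values were TPM (transcript abundance scaled to a common library total), which allow for transcript length and fix each library's total, so the depth behind a value is unknown. They were summed to genes, so IIIb and IIIc forms could not be told apart.

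The leading receptor differed between the populations. Fgfr2 and Fgfr3 were the leading receptors in Itga6hi CD80pos libraries, and Fgfr1 was the leading one in Itga6low CD80neg libraries. Fgf7, the most abundant ligand, was close to 0 in Itga6hi CD80pos and at 31.8 and 13.7 TPM in Itga6low CD80neg. Of the 8 members, 6 had at least 1 TPM in at least 2 libraries and were tested with limma on log2(TPM + 1), with Benjamini-Hochberg adjustment over 13474 genes. Fgfr2, Fgfr3 and Fgfbp1 were higher in Itga6hi CD80pos, against a background of 57.0% of all tested genes called higher. Fgf7, Fgf18 and Fgfr1 were lower, against 9.48% of all tested genes called lower. The libraries of the populations did not overlap for any of the 8 members, with Itga6hi CD80pos above in 3 and below in 5. Those 5 include Fgf2 and Fgf10, which are not among the tested genes. Among all tested genes the libraries did not overlap in 86.4%, with Itga6hi CD80pos above in 73.5% and below in 12.9%. Fgf2 and Fgf10 were under the filter and had no test. Fgf7 passed the filter through the Itga6low CD80neg libraries alone, so its passing already required a difference.

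**Figure D1:**
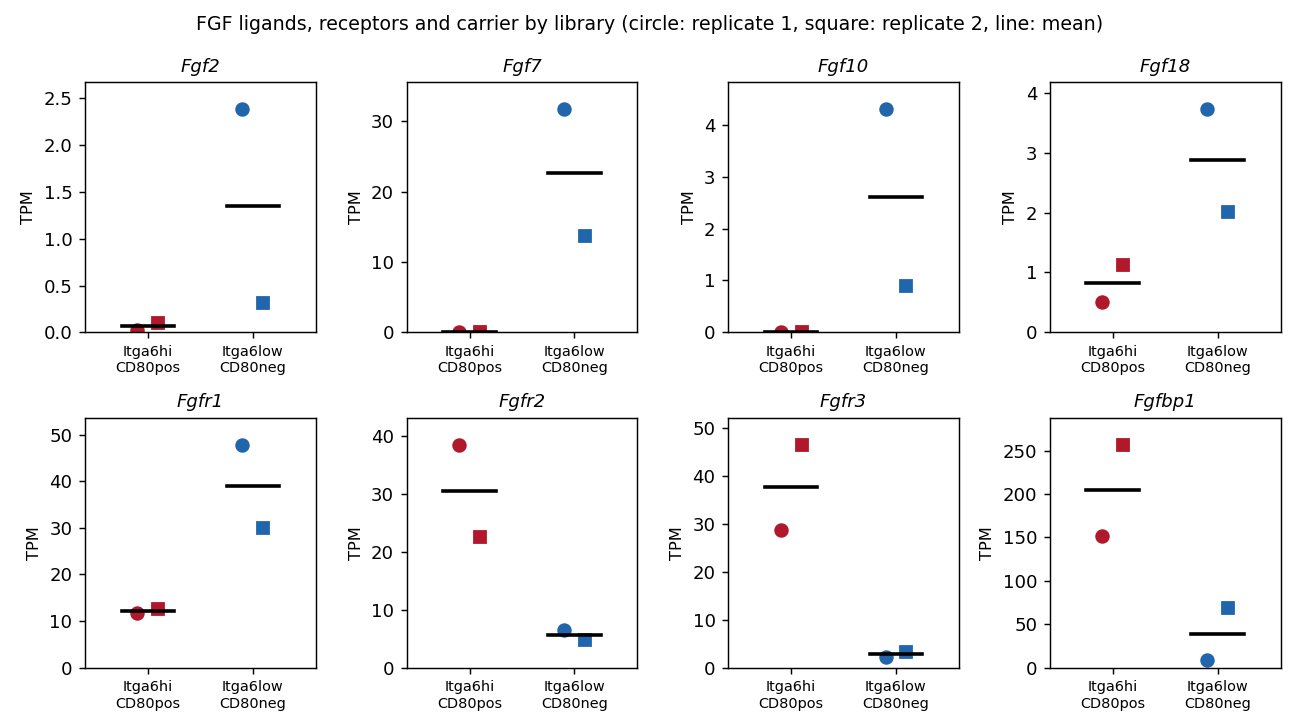
TPM of the 8 genes in each library, each panel on its own scale from 0, with circles for replicate 1, squares for replicate 2 and lines for the means of 2 libraries. The Itga6hi CD80pos points lie under the Itga6low CD80neg points for the 4 ligands and Fgfr1, and above them for Fgfr2, Fgfr3 and Fgfbp1, with Fgfbp1 at 9.26 and 69.3 TPM in the Itga6low CD80neg pair.

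The background differed widely between the libraries. Haemoglobin genes took 0.0185% and 0.00621% of TPM in Itga6hi CD80pos, against 70.9% and 50.4% in Itga6low CD80neg. Over all tested genes the median log2 fold change was 1.27, with 7686 genes higher and 1277 lower, and changes are read relative to that shift. Without haemoglobin genes in the total the median was 0.16, with 1040 genes higher and 1460 lower. Median-of-ratios scaling gave 0.24 (1372 higher, 1610 lower), quantile normalization 0.27 (1448 and 1517), and a total free of keratin, haemoglobin, mitochondrial and ribosomal protein genes 0.38 (1843 and 1502). Under all 5 scalings, the deposited one included, 6.46% of tested genes were called higher and 8.30% lower. Of the 6 tested members, Fgf7, Fgfr1 and Fgfr3 kept their call under all 5, whereas Fgfr2 and Fgfbp1 were called on the deposited scale alone and Fgf18 in 2. Every direction of the 6 stayed when either Itga6hi CD80pos replicate was left out. The calls of the members were lost there, as were most or all calls over all tested genes.

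The RNA of both sort markers followed the labels: Itga6 was at 178 and 339 TPM in Itga6hi CD80pos, against 1.50 and 1.65 TPM in Itga6low CD80neg, and Cd80 at 6.24 and 1.89 TPM in Itga6hi CD80pos, against 0.642 and 0.563 TPM in Itga6low CD80neg. Markers of other cells moved with the same contrast. Fibroblast markers were lower in 14 of 15 genes, with summed levels of 105 and 150 TPM in Itga6hi CD80pos, against 11300 and 8000 TPM in Itga6low CD80neg. Among them Col3a1, a fibrillar collagen, stood at 2.22 and 2.56 TPM in Itga6hi CD80pos, against 2963 and 2123 TPM in Itga6low CD80neg, and Twist2, a dermal fibroblast factor, was listed at 0 in Itga6hi CD80pos replicate 1. Keratinocyte markers were higher in 11 of 12 genes, with sums of 48100 and 48400 TPM in Itga6hi CD80pos, against 1920 and 5440 TPM in Itga6low CD80neg, and none at 0. The Itga6low CD80neg libraries thus held less summed keratinocyte than fibroblast marker RNA. Red blood cell markers were lower in 7 of 7 tested genes, melanocyte and Schwann markers in 4 of 4, and skeletal muscle markers in 4 of 4. The filter was passed through the Itga6low CD80neg libraries alone by 5 of the fibroblast, 3 of the red blood cell, 4 of the melanocyte and Schwann and 4 of the muscle genes, for which passing already required a difference. Endothelial and pericyte markers had 1 higher and 2 lower of 5 tested, and dermal papilla and hair follicle markers 2 and 2 of 8. Macrophage and neutrophil markers had 0 and 1 of 4, T cell markers 0 and 1 of 1, and adipocyte markers 1 and 0 of 1. Among these calls, the lower Rspo3, Corin, Lyz2 and Trac passed the filter through the Itga6low CD80neg libraries alone. The higher Vwf, an endothelial marker, passed it through the Itga6hi CD80pos libraries alone. For these genes too, passing already required a difference. T cell markers summed to 1.13 and 0.67 TPM in Itga6hi CD80pos, against 3.32 and 7.66 TPM in Itga6low CD80neg, and Trdc, the gamma-delta receptor chain of skin T cells that can make Fgf7, was at 0 in both Itga6hi CD80pos libraries, against 0 and 0.0909 TPM in Itga6low CD80neg. The part of these cells in the differences of FGF genes was not tested, and fewer cells of a type and less RNA per cell cannot be told apart in bulk libraries.

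Fgf7 (keratinocyte growth factor, chromosome 2, 126034658 to 126091185, plus strand, GRCm38) was at 0.0185 TPM and listed at 0 in the Itga6hi CD80pos libraries, against 31.8 and 13.7 TPM in the Itga6low CD80neg libraries. Both Itga6low CD80neg libraries lay far above both Itga6hi CD80pos libraries. Fgf7 fell by 4.44 ± 0.45 on the log2(TPM + 1) scale (SE, limma adjusted p = 0.00394), which understates low levels. With a pseudocount of 0.1 the fall was 7.59. The adjusted p stayed between 0.00394 and 0.0152 over the 5 scalings. Fam227b, which overlaps all of Fgf7 on the opposite strand, was listed at 0 in all 4 libraries.

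The stretch before the Fgf7 start is printed because Fgf7 had the widest difference of the 8 genes, with the start stretches of Fgfr3 and Fgfbp1, the receptor and the carrier with the widest rises, set beside it for comparison. Each comes from RefSeq (GRCm38.p6), on the gene's own strand, and ends before the outermost start annotated by RefSeq or GENCODE. Capitals mark CCAAT or GGGCGG on either strand. The windows are chr2:126034408-126034657 (plus strand) for Fgf7, chr5:33721474-33721673 (plus strand) for Fgfr3 and chr5:43981829-43982049 (minus strand) for Fgfbp1.
Fgf7: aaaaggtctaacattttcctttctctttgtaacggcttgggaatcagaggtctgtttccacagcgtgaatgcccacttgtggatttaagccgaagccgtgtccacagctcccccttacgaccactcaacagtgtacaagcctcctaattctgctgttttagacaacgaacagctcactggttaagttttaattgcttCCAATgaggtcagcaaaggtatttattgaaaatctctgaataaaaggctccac
Fgfr3: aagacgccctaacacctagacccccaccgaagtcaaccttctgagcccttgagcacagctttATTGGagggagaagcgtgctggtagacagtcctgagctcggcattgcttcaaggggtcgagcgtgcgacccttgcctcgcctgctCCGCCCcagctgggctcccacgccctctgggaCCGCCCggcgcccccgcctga
Fgfbp1: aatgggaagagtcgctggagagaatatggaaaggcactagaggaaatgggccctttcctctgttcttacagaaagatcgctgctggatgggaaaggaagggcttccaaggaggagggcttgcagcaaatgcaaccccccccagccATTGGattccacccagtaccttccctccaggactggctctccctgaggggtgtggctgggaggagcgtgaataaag

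RefSeq windows matched 7 of the 8 members, in 8 windows since Fgfr3 had 2 starts. The 250 bases before each start were searched on both strands for 6 motifs. The TATA box (TATAAA) is in 12.4% of 32851 such windows. CCAAT is in 33.8% and the GC box (GGGCGG) in 32.7%. The AP-1 motif (TGANTCA) is in 6.75%, the TEAD motif (GGAATG) in 12.6% and the E-box (CACGTG) in 6.02%. CCAAT lay 53 to 49 bases before the Fgf7 start. Its reverse complement, ATTGG, lay 105 to 101 bases before the Fgfbp1 start and 188 to 184 before the upstream Fgfr3 start. GGGCGG, on the opposite strand, lay at 3 places before that Fgfr3 start (103 to 98, 71 to 66 and 31 to 26 bases), the last of them past the printed stretch. The TATA box, AP-1, TEAD and E-box motifs were in none of the 8 windows. GC content was 43.6% for Fgf7, 66.8% for the upstream Fgfr3 start and 53.6% for Fgfbp1, against a median of 52.4% over all windows. A match describes these letters alone.

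Fgf10, another ligand of the Fgfr2 IIIb form, was listed at 0 and at 0.00754 TPM in Itga6hi CD80pos, against 4.30 and 0.902 TPM in Itga6low CD80neg. As for Fgf7, Itga6low CD80neg replicate 1 was the highest library. Only 1 library reached 1 TPM on the deposited scale, so the gene was not tested. Haemoglobin genes took 50.4% of TPM in Itga6low CD80neg replicate 2, where Fgf10 was at 0.902 TPM. The filter was not set anew without them. With no filter on low values the log2 difference was -1.66 (limma adjusted p = 0.375 over 55481 genes).

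Fgf2 (basic FGF, which lacks a classical signal peptide and is stored in the matrix) stood at 0.0277 and 0.103 TPM in Itga6hi CD80pos, against 2.38 and 0.316 TPM in Itga6low CD80neg. The Itga6low CD80neg libraries differed widely from each other, though both were above both Itga6hi CD80pos libraries. With no filter the log2 difference was -0.99 (adjusted p = 0.697). Nudt6 overlaps Fgf2 on the opposite strand by 5199 bases and stood at 5.94 and 6.60 TPM in Itga6hi CD80pos, against 1.50 and 1.18 TPM in Itga6low CD80neg. The use of strand is not given in the sources used here, so reads of the pair may not be fully told apart.

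Fgf18, which in mouse skin is a signal of resting hair follicles, stood at 0.509 and 1.13 TPM in Itga6hi CD80pos, against 3.73 and 2.01 TPM in Itga6low CD80neg. The populations did not overlap, and the nearest libraries were 1.13 and 2.01 TPM. It fell by 1.07 ± 0.36 on the log2 scale (SE, limma adjusted p = 0.0440). The adjusted p was up to 0.0679 under the other scalings and 0.132 without Itga6low CD80neg replicate 1. Unlike Fgf7, Fgf18 was still detected in both Itga6hi CD80pos libraries.

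Among 18 secreted FGF ligands, the 4 members made up most of the ligand RNA in Itga6low CD80neg. The summed ligand level was 2.14 and 2.31 TPM in Itga6hi CD80pos, against 52.7 and 19.8 TPM in Itga6low CD80neg. Fgf7 held 0.862% and 0% of that sum in Itga6hi CD80pos, against 60.3% and 68.9% in Itga6low CD80neg. Fgf18 held 23.8% and 49.0% in Itga6hi CD80pos, against 7.07% and 10.1% in Itga6low CD80neg, so the small ligand pool of Itga6hi CD80pos was led by Fgf18 in replicate 2 and by Fgf1 and Fgf18 in replicate 1. Fgf1, a ligand of all FGF receptors, held 25.8% and 24.1% in Itga6hi CD80pos, against 3.73% and 3.41 in Itga6low CD80neg%. Such shares do not move when all values of a library are divided by 1 factor, though quantile normalization can move them.

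None of the 14 other secreted ligands passed the filter, which was set on the deposited scale. Fgf23, a bone hormone, stood at 0.0699 and 0.0182 TPM in Itga6hi CD80pos, against 6.82 and 0.957 TPM in Itga6low CD80neg, and Fgf1 at 0.552 and 0.555 TPM in Itga6hi CD80pos, against 1.96 and 0.675 TPM in Itga6low CD80neg. Fgf6, Fgf17 and Fgf20 were listed at 0 in all 4 libraries. The 4 intracellular FGF homologous factors, which bind sodium channels and not receptors, were also under the filter, led by Fgf11 at 0.292 and 0.299 TPM in Itga6hi CD80pos, against 1.65 and 0.725 TPM in Itga6low CD80neg and by Fgf14 at 1.43 and 0.267 TPM in Itga6hi CD80pos, against 0.498 and 0.318 TPM in Itga6low CD80neg.

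Against the fibroblast markers, the ligands took unlike shares. Fgf7 equalled 0.0176% and 0% of the summed fibroblast marker TPM in Itga6hi CD80pos, against 0.282% and 0.171% in Itga6low CD80neg. Fgf10 equalled 0% and 0.00503% in Itga6hi CD80pos, against 0.0382% and 0.0113 in Itga6low CD80neg%. Fgf18 went the other way, at 0.484% and 0.755% in Itga6hi CD80pos, against 0.0331% and 0.0251 in Itga6low CD80neg%. Fgf2 equalled 0.0263% and 0.0686% in Itga6hi CD80pos, against 0.0212% and 0.00395% in Itga6low CD80neg, with the nearest libraries almost level. These shares rest on which markers are summed, since Fbln1 (80.2 and 54.5 TPM in Itga6hi CD80pos, against 82.3 and 37.5 TPM in Itga6low CD80neg, not called) and Postn (10.6 and 75.1 TPM in Itga6hi CD80pos, against 785 and 1501 TPM in Itga6low CD80neg) made up most of the Itga6hi CD80pos sums. Without both, a choice made after seeing the data, the sums were 14.4 and 20.2 TPM in Itga6hi CD80pos, against 10400 and 6460 TPM in Itga6low CD80neg. Fgf7 then equalled 0.129% and 0% in Itga6hi CD80pos, against 0.306% and 0.211% in Itga6low CD80neg, still without overlap. Fgf10 equalled 0% and 0.0374% in Itga6hi CD80pos, against 0.0414% and 0.0140% in Itga6low CD80neg, with overlap. Fgf18 equalled 3.54% and 5.61% in Itga6hi CD80pos, against 0.0359% and 0.0311% in Itga6low CD80neg, and Fgf2 0.193% and 0.509% in Itga6hi CD80pos, against 0.0230% and 0.00490% in Itga6low CD80neg. With 2 libraries on each side, the smallest p of an exact two-sided permutation test is 0.333, so shares and ratios carry no test.

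Fgfr1 (chromosome 8, 25513654 to 25575718, plus strand), the main receptor of fibroblasts, stood at 11.7 and 12.5 TPM in Itga6hi CD80pos, against 47.9 and 30.0 TPM in Itga6low CD80neg. The Itga6hi CD80pos pair lay close together and well under the other pair. Fgfr1 fell by 1.57 ± 0.36 on the log2 scale (SE, limma adjusted p = 0.0149), a 3.22-fold lower mean TPM, while the median of all genes was 1.27 above 0. The fall ranged from 1.57 to 2.95 over the 5 scalings, with adjusted p up to 0.0271. Of 15 fibroblast markers, 14 had a lower log2 fold change than Fgfr1, and their list's median was -7.27. In Itga6hi CD80pos, Fgfr1 stood above the listed fibroblast collagens, the highest of which there was Col1a1 at 2.47 and 2.92 TPM. It stood under Fbln1 (80.2 and 54.5 TPM) in both of these libraries and under Postn (75.1 TPM) in replicate 2. Fgfr1 equalled 11.1% and 8.35% of summed fibroblast marker TPM in Itga6hi CD80pos, against 0.425% and 0.375% in Itga6low CD80neg. Without Fbln1 and Postn in the sum these shares were 81.4% and 62.0% in Itga6hi CD80pos, against 0.461% and 0.465% in Itga6low CD80neg.

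Fgfr2, the keratinocyte receptor of Fgf7 and Fgf10 in its IIIb form, stood at 38.5 and 22.5 TPM in Itga6hi CD80pos, against 6.58 and 4.78 TPM in Itga6low CD80neg. The lower Itga6hi CD80pos library was still above both Itga6low CD80neg libraries. The log2 fold change was 2.20 ± 0.38 (SE, limma adjusted p = 0.00823), or 0.93 above the median of all genes. Under the other scalings it lay between 0.90 and 1.19, with adjusted p from 0.131 to 0.256, so the call did not hold there. GENCODE places the gene at chromosome 7, 130162451 to 133123350, minus strand, across many neighbours, whereas RefSeq ends it at 130266808.

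Fgfr3 (chromosome 5, 33721674 to 33737068, plus strand), a receptor of the epidermis whose activating mutations occur in benign human skin tumours, stood at 28.7 and 46.6 TPM in Itga6hi CD80pos, against 2.22 and 3.39 TPM in Itga6low CD80neg. It had the widest rise of the 6 tested members, a 13.4-fold higher mean TPM, and no overlap between the populations. The log2 fold change was 3.32 ± 0.38 (SE, limma adjusted p = 0.00453), or 2.05 above the median of all genes. It lay between 2.19 and 3.32 over the 5 scalings, with adjusted p up to 0.0244, and was called under each.

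**Figure D2:**
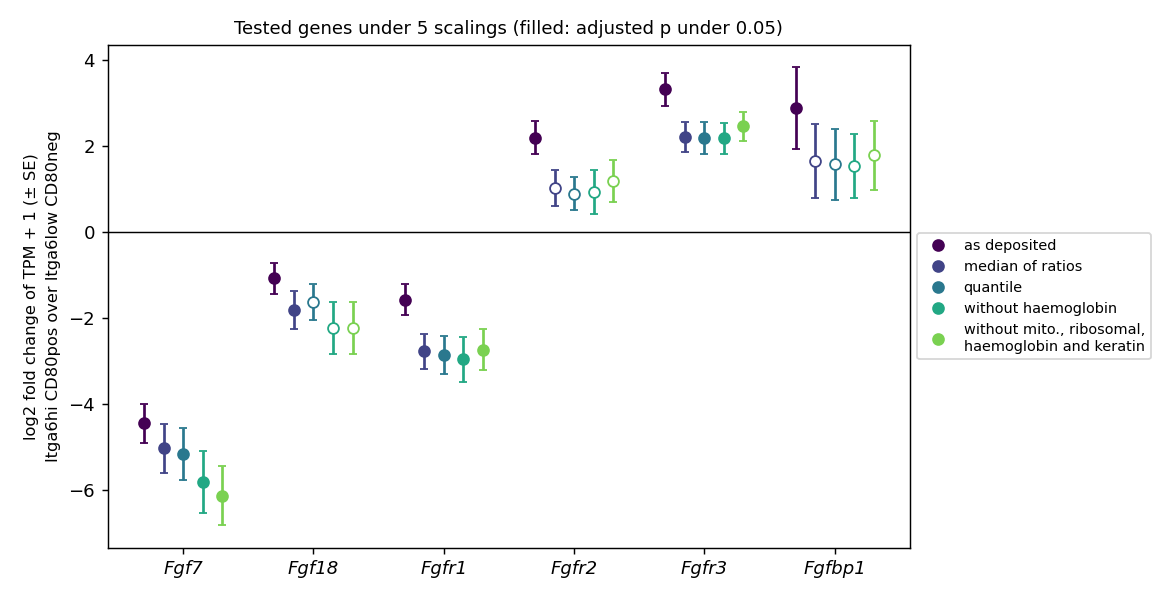
Log2 fold changes of TPM + 1 (Itga6hi CD80pos over Itga6low CD80neg, ± SE from limma) of the 6 tested genes under 5 scalings, filled where the adjusted p was under 0.05. Fgf7, Fgfr1 and Fgfr3 are filled under all 5, and Fgfr2 and Fgfbp1 on the deposited scale alone.

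Ratios between receptors within a library do not change when all its values are divided by 1 factor, as when haemoglobin genes leave the total. Quantile normalization is not such a division and can change them. Fgfr2 over Fgfr1 was 3.29 and 1.80 in Itga6hi CD80pos, against 0.138 and 0.159 in Itga6low CD80neg. Fgfr3 over Fgfr1 was 2.45 and 3.73 in Itga6hi CD80pos, against 0.0463 and 0.113. in Itga6low CD80neg Both ratios were above 1 in each Itga6hi CD80pos library and under 1 in each Itga6low CD80neg library. Fgfr3 over Fgfr2 was 0.746 and 2.07 in Itga6hi CD80pos, against 0.337 and 0.709 in Itga6low CD80neg, where the nearest libraries almost met. The order of Fgfr2 and Fgfr3 differed between the Itga6hi CD80pos replicates, so neither can be placed first there.

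Of the summed TPM of Fgfr1 to Fgfr4, Fgfr1 held 14.8% and 15.3% in Itga6hi CD80pos, against 82.9% and 76.2% in Itga6low CD80neg. Fgfr2 held 48.8% and 27.6% in Itga6hi CD80pos, against 11.4% and 12.2 in Itga6low CD80neg%. Fgfr3 held 36.4% and 57.1% in Itga6hi CD80pos, against 3.84% and 8.62 in Itga6low CD80neg%. The summed level on the deposited scale was 78.8 and 81.6 TPM in Itga6hi CD80pos, against 57.7 and 39.4 TPM in Itga6low CD80neg. Unlike the shares, that sum moves with the library total, of which haemoglobin genes took 70.9% and 50.4% in Itga6low CD80neg. The sums were not compared under another scaling. Fgfr4 was a trace receptor, at 0.0121 TPM and listed at 0 in Itga6hi CD80pos, against 1.05 and 1.18 TPM in Itga6low CD80neg, and fell by 1.07 ± 0.25 on the log2 scale (SE, adjusted p = 0.0155), under all 5 scalings. Like Fgf7, it passed the filter through the Itga6low CD80neg libraries alone, so its passing already required a difference.

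**Figure D3:**
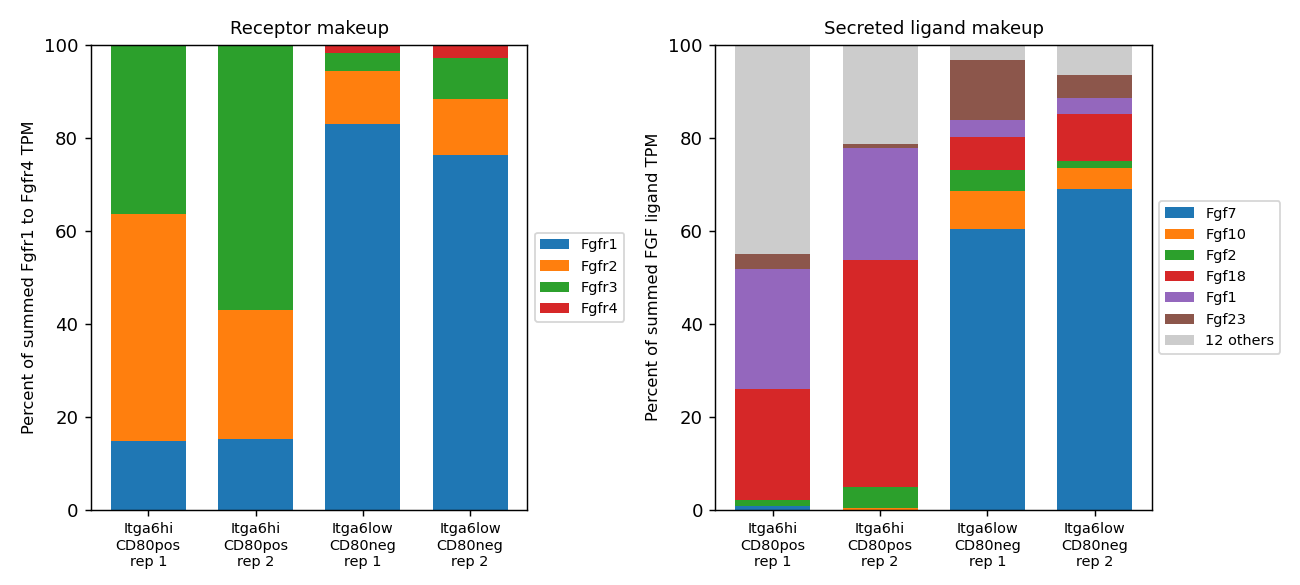
Percent of the summed TPM of Fgfr1 to Fgfr4 (left) and of 18 secreted FGF ligands (right) in each library. Fgfr1 makes up 14.8% and 15.3% in Itga6hi CD80pos against 82.9% and 76.2% in Itga6low CD80neg, and Fgf7 makes up 0.862% and 0% of the ligands against 60.3% and 68.9%.

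Fgfr2 equalled 0.0799% and 0.0465% of the summed keratinocyte marker TPM in Itga6hi CD80pos, against 0.343% and 0.088% in Itga6low CD80neg, without overlap. Leaving the keratins Krt5, Krt14 and Krt15 out of the sum, also a choice made after seeing the data, gave 0.641% and 0.391% in Itga6hi CD80pos, against 1.79% and 0.423% in Itga6low CD80neg, with overlap. Fgfr3 overlapped, at 0.0596% and 0.0963% in Itga6hi CD80pos, against 0.115% and 0.0624 in Itga6low CD80neg%. Of 12 keratinocyte markers, 11 had a higher log2 fold change than Fgfr2 and 8 a higher one than Fgfr3, around a list median of 3.83. Fgfr1 equalled 0.0243% and 0.0258% in Itga6hi CD80pos, against 2.49% and 0.552 in Itga6low CD80neg%.

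Fgfbp1 (chromosome 5, 43978858 to 43981779, minus strand), the carrier that mobilises stored ligand, was the most abundant of the 8 members in 3 of 4 libraries by TPM. It stood at 151 and 257 TPM in Itga6hi CD80pos, against 9.26 and 69.3 TPM in Itga6low CD80neg. The populations did not overlap, but the Itga6low CD80neg libraries differed widely from each other. The log2 fold change was 2.88 ± 0.95 (SE, limma adjusted p = 0.0414), and it lay between 1.54 and 1.79 under the other scalings, with adjusted p from 0.158 to 0.223. The call was also lost without Itga6low CD80neg replicate 1, where the log2 fold change was 1.49 (adjusted p = 0.0688), and the value without its replicate 2 was 4.27. Per keratinocyte marker RNA Fgfbp1 equalled 0.314% and 0.531% in Itga6hi CD80pos, against 0.482% and 1.27% in Itga6low CD80neg, with overlap.

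Other carriers and co-receptors showed no common direction: 1 was higher, 1 lower and 3 not called of 5 tested. Flrt3, a membrane protein that binds FGF receptors, stood at 21.4 and 37.0 TPM in Itga6hi CD80pos, against 1.23 and 5.39 TPM in Itga6low CD80neg. Its log2 fold change of 2.95 ± 0.59 had a limma adjusted p of 0.0110, on the deposited scale alone. The 1 lower was Fgfr4. Kl and Klb, the klotho co-receptors of hormone-like FGFs, were under the filter.

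Heparan sulphate proteoglycans, which hold FGF to its receptor, split by gene. Of 11 tested, 4 were higher, 3 lower and 4 not called, with a median log2 fold change of 0.04 beside 1.27 for all genes. Sdc1, the syndecan of keratinocytes, stood at 632 and 762 TPM in Itga6hi CD80pos, against 46.4 and 137 TPM in Itga6low CD80neg (log2 fold change 3.11 ± 0.64, adjusted p = 0.0119), and was called under 4 of 5 scalings. Sdc4, a widely expressed syndecan, stood at 98.5 and 104 TPM in Itga6hi CD80pos, against 19.0 and 26.0 TPM in Itga6low CD80neg (2.14 ± 0.35, adjusted p = 0.00737), called under 2. Gpc3, a glypican, stood at 0.112 and 0.822 TPM in Itga6hi CD80pos, against 86.0 and 53.8 TPM in Itga6low CD80neg (-5.60 ± 0.41, adjusted p = 0.00257), under all 5. Gpc3 also passed the filter through the Itga6low CD80neg libraries alone. Gpc2, 1 of the 4 higher, passed it through the Itga6hi CD80pos libraries alone, so its passing already required a difference. It stood at 2.269 and 1.635 TPM in Itga6hi CD80pos, against 0.5232 and 0.7516 TPM in Itga6low CD80neg. Hspg2, the basement membrane proteoglycan perlecan, stood at 5.21 and 10.3 TPM in Itga6hi CD80pos, against 68.8 and 20.5 TPM in Itga6low CD80neg (-2.21 ± 0.65, adjusted p = 0.0306), under 4.

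Enzymes that build or trim heparan sulphate had 6 higher, 1 lower and 4 not called of 11 tested, with a median of 1.02. The sulphatases Sulf1 and Sulf2, which remove the 6-O-sulphates that FGF signalling needs, moved apart. Sulf1 stood at 0.343 and 2.83 TPM in Itga6hi CD80pos, against 11.8 and 14.0 TPM in Itga6low CD80neg (log2 fold change -2.61 ± 0.54, adjusted p = 0.0119) and was called under all 5 scalings. Sulf2 stood at 44.1 and 33.1 TPM in Itga6hi CD80pos, against 15.6 and 7.82 TPM in Itga6low CD80neg (1.70 ± 0.42, adjusted p = 0.0191), on the deposited scale alone. Hs6st1, which adds 6-O-sulphate, stood at 43.6 and 31.5 TPM in Itga6hi CD80pos, against 9.80 and 5.47 TPM in Itga6low CD80neg (2.19 ± 0.39, adjusted p = 0.00865), and Ndst1, an N-sulphotransferase, at 39.7 and 32.3 TPM in Itga6hi CD80pos, against 13.0 and 6.63 TPM in Itga6low CD80neg (1.83 ± 0.40, adjusted p = 0.0139). Those calls too were limited to the deposited scale. Of the other higher enzymes, Ext2 and Glce kept their sign under 2 and 3 of the 5 scalings.

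Signal transducers of the receptors lay close to the median of all genes. All 9 tested were higher, with a median log2 fold change of 1.49 beside 1.27, and none kept its call under all 5 scalings. The adaptor Shc1 was above 0 under 1 of 5, and the other 8 under all 5. Plcg1, the phospholipase that binds the activated receptor, stood at 31.8 and 32.4 TPM in Itga6hi CD80pos, against 9.31 and 5.10 TPM in Itga6low CD80neg (2.06 ± 0.37, adjusted p = 0.00859). The phosphatase Ptpn11 (1.75 ± 0.30, adjusted p = 0.00777), the adaptor Grb2 (1.71 ± 0.30, adjusted p = 0.00849) and the Ras exchange factor Sos2 (1.63 ± 0.31, adjusted p = 0.0102) followed.

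Feedback regulators and targets, which also answer to other Ras-MAP kinase inputs, had 5 higher and 8 not called of 13 tested, with a median of 0.90. Spry3 had no row under that symbol. Etv4, an ETS factor induced by FGF, stood at 56.7 and 67.0 TPM in Itga6hi CD80pos, against 3.36 and 5.69 TPM in Itga6low CD80neg (log2 fold change 3.53 ± 0.35, adjusted p = 0.00394), and was the 1 gene of the list called higher under all 5 scalings. Dusp6, the ERK phosphatase, stood at 134 and 211 TPM in Itga6hi CD80pos, against 11.0 and 33.6 TPM in Itga6low CD80neg (3.06 ± 0.61, adjusted p = 0.0108), called under 3. Etv5, the relative of Etv4, stood at 16.7 and 13.8 TPM in Itga6hi CD80pos, against 2.71 and 2.73 TPM in Itga6low CD80neg (2.12 ± 0.29, adjusted p = 0.00575), and Spred2, a Ras pathway inhibitor, at 10.8 and 12.6 TPM in Itga6hi CD80pos, against 4.40 and 1.59 TPM in Itga6low CD80neg (1.75 ± 0.43, adjusted p = 0.0180), both on the deposited scale alone. Spred1, also called higher, had a log2 fold change above 0 under 1 of 5 scalings. Spry1, a feedback inhibitor named after its values were seen, had 14.7 and 12.6 TPM in Itga6hi CD80pos, against 22.1 and 16.4 TPM in Itga6low CD80neg and was not called (limma adjusted p = 0.249), although it was called lower under 2 of the 5 scalings. Etv1, also named after its values were seen, went the other way from Etv4 and Etv5. It had 0.417 and 1.36 TPM in Itga6hi CD80pos, against 2.48 and 2.26 TPM in Itga6low CD80neg. On the deposited scale it was not called (log2 fold change -0.88, limma adjusted p = 0.0665), but it was called lower under 3 of the 5 scalings.

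Regulators of Fgfr2 splicing were higher in 6 of 6 tested, against 57.0% of all tested genes. The median log2 fold change of the list was 2.68, beside 1.27 for all genes. Esrp1 and Esrp2, the epithelial factors that favour the IIIb exon, stood at 90.0 and 78.9 TPM in Itga6hi CD80pos, against 4.83 and 8.94 TPM in Itga6low CD80neg, and at 93.8 and 64.5 TPM in Itga6hi CD80pos, against 7.60 and 11.6 TPM in Itga6low CD80neg. Their log2 fold changes were 3.49 ± 0.38 (adjusted p = 0.00436) and 2.92 ± 0.38 (adjusted p = 0.00553). Ptbp1, which represses the IIIb exon in other cells, rose as well, at 364 and 308 TPM in Itga6hi CD80pos, against 46.4 and 45.4 TPM in Itga6low CD80neg (2.84 ± 0.39, adjusted p = 0.00577), as did Hnrnpm at 242 and 205 TPM in Itga6hi CD80pos, against 33.5 and 42.7 TPM in Itga6low CD80neg (2.53 ± 0.38, adjusted p = 0.00655). These 4 were called under all 5 scalings. Hnrnpa1 was called under 3 of the 5 and Rbfox2 on the deposited scale alone. The exon choice itself was not measured.

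**Figure D4:**
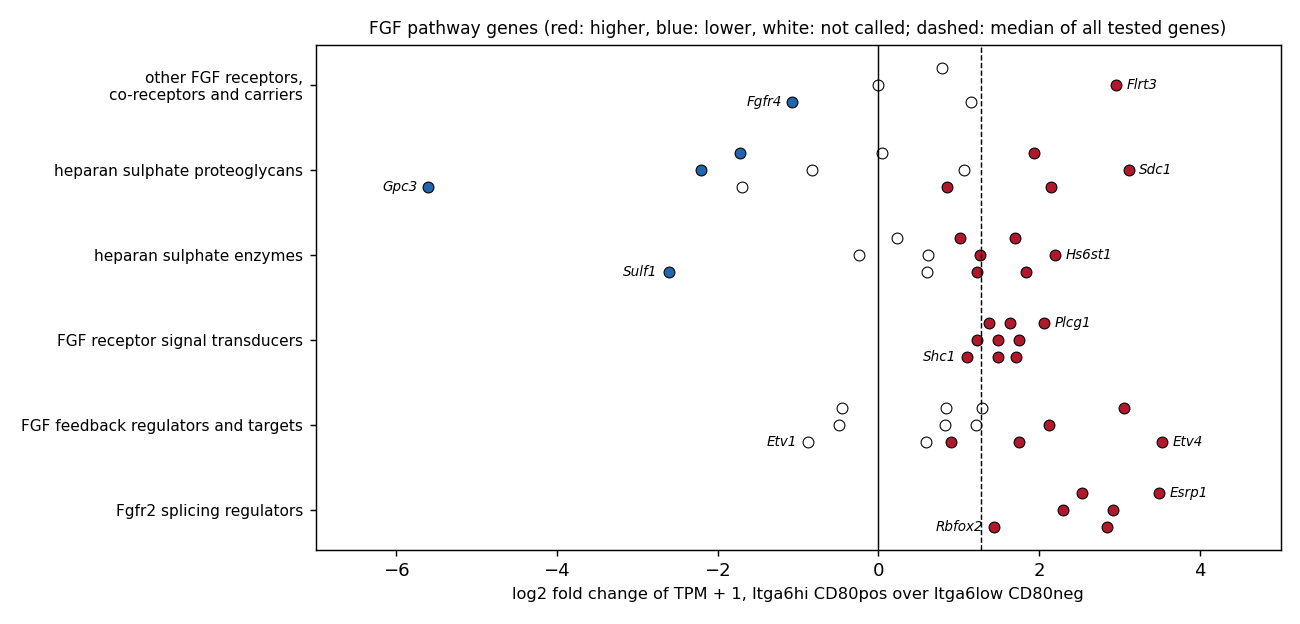
Log2 fold changes of TPM + 1 (Itga6hi CD80pos over Itga6low CD80neg) of the 55 tested pathway genes in 6 lists, 1 point per gene, with the lowest and highest of each list named. The dashed line is the median of all tested genes (1.27), around which the signal transducers lie, while Gpc3 and Sulf1 lie far to the left.

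Over these pathway lists, 31 genes were higher, 5 lower and 19 not called of 55 tested on the deposited scale, against backgrounds of 57.0% and 9.48% of all genes. The pattern of each member over the 4 libraries was also set against other tested genes by Euclidean distance of log2(TPM + 1). Genes without a symbol, predicted models (Gm numbers and Rik), mitochondrial genes and pseudogenes were left out. The nearest to Fgf7 were Itga11 and Tbx15 (0.23 each), and to Fgf18 Flt1 (0.26) and Gbp7 (0.30). The nearest to Fgfr1 were Pros1 (0.50) and Cebpd (0.52), to Fgfr2 Pds5a (0.30) and Asph (0.36), to Fgfr3 Fam167a (0.21) and Clcf1 (0.37), and to Fgfbp1 Spint2 (0.73) and Areg (0.77). With 4 libraries many genes lie near any pattern. Clcf1, for example, stood at 30.1 and 50.9 TPM in Itga6hi CD80pos, against 2.37 and 4.55 TPM in Itga6low CD80neg, close to Fgfr3 in every library.

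In Itga6hi CD80pos, Fgfbp1 was the highest, Fgfr2 and Fgfr3 followed without a separation between them, Fgfr1 came next, and the 4 ligands lay lowest with Fgf18 first among them. In Itga6low CD80neg, Fgfbp1, Fgfr1 and Fgf7 overlapped at the top, Fgfr2 came next, and Fgfr3, Fgf18, Fgf10 and Fgf2 lay lowest with overlapping values.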

How the data were processed

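Per the labels, extraction used the Zymo Quick-RNA Microprep kit and library preparation a NEBNext kit for single cells or low input. The deposited values are TPM per gene, made by the authors with kallisto 0.44.0 on build mm10, per the submitters' processing notes. Annotation, use of strand and summing to genes are not given in the sources used here. Each column summed to 1000000, and depth is unknown. The 13474 genes that reached 1 TPM in 2 or more libraries were compared on log2(TPM + 1) with limma 3.58.1 in R 4.3.3. Its trended eBayes test was two-sided, with 2 residual and 3.33 prior degrees of freedom, and a call is an adjusted p (Benjamini-Hochberg) under 0.05. The code was tested on simulated data with few genes changed and no shift over all genes, unlike the contrast here. Coordinates are from GENCODE on GRCm38, and sequences from RefSeq. Members and lists were chosen with earlier results of these data known. Named genes were the members, up to 4 called genes per pathway list by absolute fold change (the 2 with the highest mean TPM where none was called), cell type genes by highest TPM, and the 2 genes nearest each tested member; a few others are given as exceptions. Some of the cell type genes so chosen are not given values. Median-of-ratios scaling used 16860 genes. The filter of 1 TPM was set on the deposited TPM and kept under the 4 other scalings. Alternatives were pseudocounts of 0.1 and 5, no filter, a mean of at least 5 TPM, 4 other scalings, leaving out each library, and a replicate block.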

Additional observations from a re-analysis of the deposited data

How the results depend on the processing

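The directions of all 6 tested members stayed under every alternative that tested them. Calls of members were 3 higher and 3 lower. They became 1 higher and 3 lower under median-of-ratios scaling, and 1 and 2 under quantile normalization, without haemoglobin genes, and without mitochondrial, ribosomal protein, haemoglobin and keratin genes. With no filter, limma called 0 members, 0 pathway genes and 0 of all 55481 genes in either direction. At an unadjusted p under 0.05 there were 8434 higher and 1670 lower. Many more genes entered both the adjustment and the fit there, and what each did to the calls was not tested. The pathway lists had 31 higher and 5 lower, against 5 and 7 under median-of-ratios scaling, 7 and 7 under quantile normalization, 7 and 4 without haemoglobin genes and 9 and 6 without the 4 gene classes. For all genes, the 7686 higher became 1372, 1448, 1040 and 1843 under those scalings, and the 1277 lower became 613 with a mean of at least 5 TPM. Leaving out 1 library gave 0 to 8227 genes higher and 0 to 1237 lower, 0 to 3 members higher and 0 to 3 lower, and 0 to 32 pathway genes higher and 0 to 4 lower. The lowest counts came without Itga6hi CD80pos replicate 1, where an unadjusted p under 0.05 still held for 4442 higher and 1033 lower genes. Leaving out the other Itga6hi CD80pos library gave 353 higher and 174 lower. The causes were not tested. Where 1 library is left, it is assumed to vary like the other population. With the replicate block, limma called 8044 genes higher and 1452 lower and the same number of members, 3 and 3, with 33 pathway genes higher and 7 lower. The labels give no shared source for a number, and deviations of same-numbered libraries correlated at 0.109 across genes. The mean share of Fgfr3 in keratinocyte marker TPM, Itga6hi CD80pos minus Itga6low CD80neg, was -0.0109 percentage points and became 0.193 without keratins, with the populations overlapping both times. TPM hold no depth, so low levels such as those of Fgf2 and Fgf10 carry no counting interval.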
